A study of Mus musculus with 8 samples.

Results

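Pancreas tissue of obese mice, whether the obesity came from diet or from a gene defect, was compared with that of lean mice to find the genes that lay on the same side in every obese mouse. The members described here are the genes of the deposited expression values in which all 5 obese mice, 3 on a high-fat diet (HFD) and 2 leptin-deficient ob/ob mice, were above or below all 3 mice on a low-fat diet (LFD). Of 15047 genes, 2776 met this rule. In 1414 of them (9.4% of all genes) the 5 obese mice were above the LFD mice, and in 1362 (9.05%) they were below.

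LFD and HFD mice were male C57BL/6 WT animals that received their diet for 10 weeks from 4 weeks of age, and fat made up 60% of calories in the HFD. The ob/ob mice were male C57BL/6J animals that lack functional leptin, the adipocyte hormone that curbs appetite, and they received standard chow, also from 4 weeks of age. They thus differed from the LFD mice in both genotype and chow, and the effects of these 2 factors cannot be told apart. By the methods of the study, the pancreata also carried an orthotopic transplant of mT organoids, grown from mouse pancreatic tumors, whereas the sample labels give the tissue as pancreas alone. The values therefore mix host tissue and transplanted cells, and in such bulk RNA fewer cells of a type and less RNA per cell cannot be told apart.

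The exocrine pancreas is built mostly of acinar cells, which make digestive enzymes in large amounts, fold them in the endoplasmic reticulum (ER) and store them in zymogen granules. Obesity is known for low-grade inflammation, in which monocytes enter tissues and become macrophages and fibroblasts lay down matrix. The circadian clock, a loop in which CLOCK and ARNTL activate the Per, Cry and Nr1d genes whose products repress them in turn, runs in most tissues and is tied to feeding.

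Values are rlog values, that is counts on a log2 scale corrected for library size, in which differences of genes with few reads are shrunk. Counts were not used here, so the depth of each library is unknown and the error given is the spread between mice. The tissue carried the markers of its label, since 31 genes of acinar enzymes made up 60.9%, 61.8% and 63.1% of the summed linear values in LFD replicates 1 to 3. HFD mice had shares of 60.1%, 40.6% and 21.3% (replicates 1 to 3), and ob/ob mice of 57.4% and 24.0% (replicates 1 and 2). The share averaged 40.7% ± 18.1 (SD, n = 5) in obese and 61.9% ± 1.11 (SD, n = 3) in LFD mice, a difference of -21.3 points (p = 0.0357 in an exact permutation test, two-sided, which cannot go lower with 56 choices of mice). The list of enzymes was chosen with earlier results of these data known, and the spread was far wider in obese than in LFD mice. This p-value therefore does not show a shift of like size in all obese mice. HFD replicate 1 and ob/ob replicate 1 were thus close to the LFD mice in this share, and the other obese mice were not. Lep, the gene of leptin, was at 6.20, 5.86 and 6.28 in LFD mice, 7.27, 7.26 and 7.30 in HFD mice and 8.12 and 6.78 in ob/ob mice. The ob allele is a point mutation in Lep that leaves its transcript in place, so this level does not check the genotype.

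No single gene reached an adjusted p-value under 0.05 between obese and LFD mice (0 genes, 0%, limma with Benjamini-Hochberg adjustment, the HFD and ob/ob means weighted equally). The smallest adjusted p-value was 0.0598, shared by Postn, Ccr2, Hfe, Cyp2e1, Vcan, Fbn2, Slc7a5, Nr1d2 and Saa3. Before adjustment, 2186 genes (14.5%) were higher and 1639 (10.9%) lower in obese mice at p under 0.05, so that 57.2% of them were higher. With each mouse centered on its median, 1823 were higher and 2109 lower (46.4% higher). The other fits gave 0 to 4286 genes. With each of the 5 obese mice weighted equally, 10 genes passed, namely Vcan, Fbn2, Postn, Saa3 and Mms22l (higher) and Slc7a5, Tdh, Usp2, Mamdc4 and Tmem143 (lower), with adjusted p-values of 0.0282 or 0.0456. Leaving out HFD replicate 1 gave 3326 genes, leaving out ob/ob replicate 1 gave 476 and leaving out ob/ob replicate 2 gave 1. All gene differences below are therefore given as measured values, with their standard errors (SE), and not as called changes.

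Each model alone separated more genes from the same 3 LFD mice than both did together. All HFD mice were above the LFD mice in 1941 genes (12.9%) and below them in 1844 (12.3%), and both ob/ob mice were above in 3626 (24.1%) and below in 3277 (21.8%). The members were 72.8% of the HFD list and 39.0% of the ob/ob list for higher genes, and 73.9% and 41.6% for lower genes. Fewer mice make a list longer, and the lists share the LFD mice.

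The higher members differed more than the lower ones. The median difference between obese and LFD mice was 0.97 (log2) over the higher members and -0.64 over the lower ones, with 0.04 over all genes. A difference of at least 1 was seen in 668 higher and 326 lower members. Lower members were also more abundant, with a median rlog value of 8.17, compared with 6.77 in higher members and 7.16 in all genes. The gap between the nearest obese and the nearest LFD mouse was small in many members, being under 0.1 in 427 higher and 548 lower genes and at least 1 in only 9 of each.

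A single mouse set the edge of most members. HFD replicate 1 was the obese mouse closest to the LFD mice in 857 higher (60.6%) and 759 lower members (55.7%), and ob/ob replicate 1 in 289 (20.4%) and 336 (24.7%). The median difference from the LFD mean over the higher members was 0.49, 1.09 and 1.06 in the HFD mice (replicates 1 to 3) and 0.69 and 1.17 in the ob/ob mice. Over the lower members it was -0.35, -0.73 and -0.84 in HFD and -0.44 and -0.81 in ob/ob mice. The 2 mice nearest to LFD were those with the highest acinar shares among the obese mice. Over all genes, 2186 were higher and 1639 lower at unadjusted p under 0.05 in limma. With the mean of the acinar enzymes as a covariate, these counts were 1007 and 664. The part of the acinar share in the differences of the members was not tested. Without HFD replicate 1, 2771 genes were above and 2608 below the LFD mice.

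**Figure D1:**
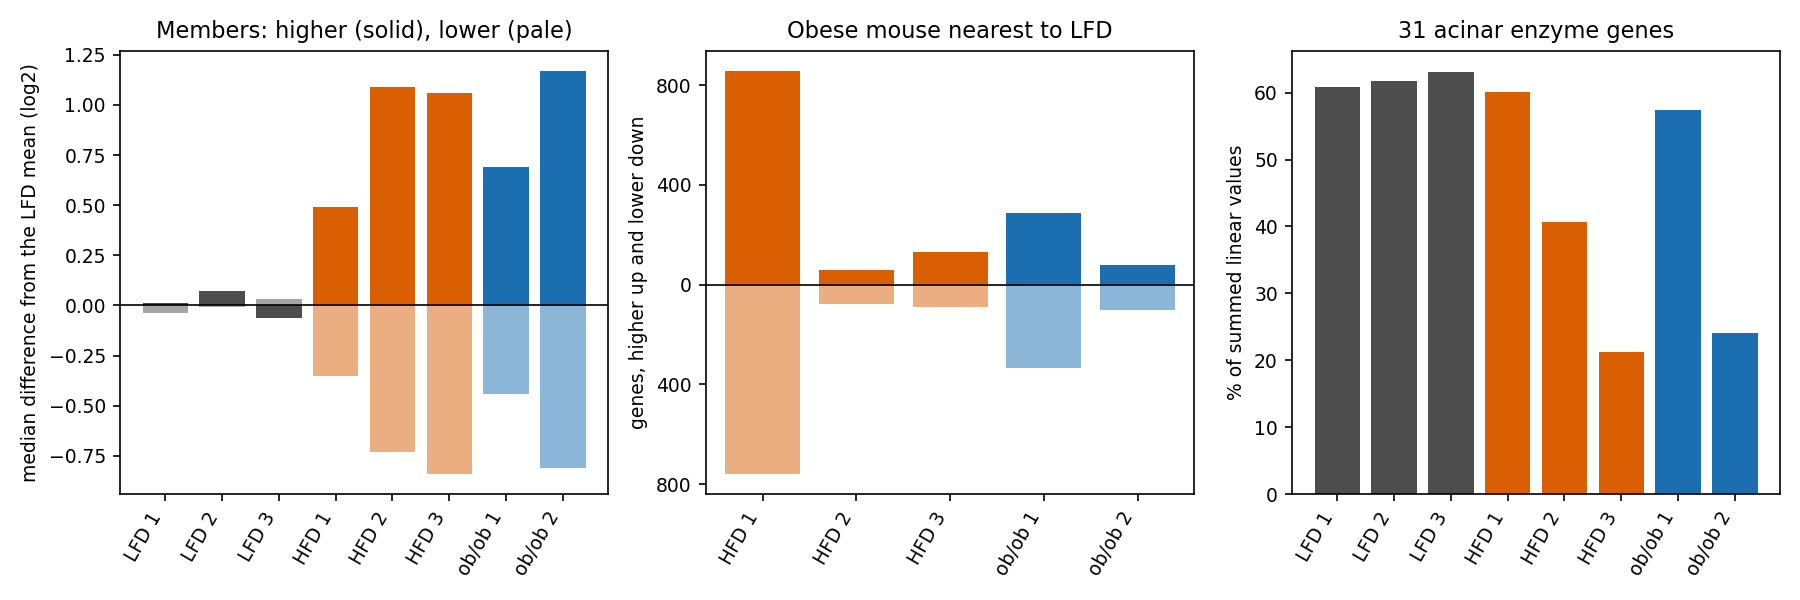
The left panel shows, for each mouse, the median difference from the LFD mean (log2) over the 1414 higher (solid bars) and 1362 lower members (pale bars). The middle panel counts the members for which each obese mouse was the closest to the LFD mice, and the right panel gives the share (%) of 31 acinar enzyme genes in the summed linear values. HFD replicate 1 and ob/ob replicate 1 have the smallest median differences and the highest acinar shares, 60.1% and 57.4%, of the obese mice.

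Among the genes higher in all obese mice, Saa3, Fbn2, Vcan and Mms22l had the widest gaps. Saa3, an acute phase protein made in inflamed tissue, was at 6.01, 6.43 and 6.19 in LFD mice, 8.16, 9.33 and 8.66 in HFD mice and 8.40 and 8.37 in ob/ob mice. The difference was 2.34 ± 0.26 (log2, SE), and the lowest obese mouse was 1.73 above the highest LFD mouse. The gene lies at chr7:46711998-46715700 (GRCm38, Gencode M21, as for the positions below). Fbn2, a fibrillin of elastic microfibrils, had values of 5.66, 5.47 and 5.35 in LFD, 7.27, 7.77 and 8.60 in HFD and 7.84 and 7.69 in ob/ob mice, a difference of 2.33 ± 0.29 with a gap of 1.60. The 5 obese mice were close together for Vcan (chr13:89655312-89742509), the matrix proteoglycan versican. Its values were 6.62, 6.70 and 6.18 in LFD, 8.36, 8.10 and 8.91 in HFD and 8.49 and 8.57 in ob/ob mice, which gave 1.99 ± 0.22. Mms22l (chr4:24496451-24602950), which helps to repair stalled replication forks, was less abundant, at 4.67, 4.89 and 4.99 in LFD, 6.11, 6.38 and 6.58 in HFD and 6.25 and 6.48 in ob/ob mice (1.51 ± 0.22).

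Ccr2 and S100a9 had the next widest gaps. Ccr2, the receptor that draws monocytes to the chemokines Ccl2, Ccl7 and Ccl12, was at 8.57, 8.43 and 8.28 in LFD, 9.70, 10.46 and 9.65 in HFD and 10.24 and 10.87 in ob/ob mice, a difference of 1.82 ± 0.23. S100a8 and S100a9 encode calprotectin, a protein of neutrophils and monocytes. S100a9 was at 6.35, 6.74 and 6.69 in LFD, 8.06, 9.17 and 10.10 in HFD and 8.06 and 7.79 in ob/ob mice, so that all groups of obese mice were clear of LFD but HFD replicates 2 and 3 reached highest. S100a8 showed the same order, from 5.69 to 6.21 in LFD, 7.78 to 9.47 in HFD and 7.18 to 7.48 in ob/ob mice. The other members with the widest gaps were the inflammasome sensor Nlrp1b, the lectin receptor Clec4n, the matrix protein Postn, the calcium-binding protein S100a4, the chromatin remodeler Hells, the hyaluronan receptor and spindle gene Hmmr, the adhesion molecule Clmp, and Lox, which cross-links collagen. Their differences ranged from 1.12 (Clmp) to 2.15 (S100a4).

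Among the genes lower in all obese mice, the enzymes Tdh and Cyp2e1 had the widest gaps. Tdh (chr14:63492347-63509092), threonine dehydrogenase of mitochondria, was at 5.67, 7.03 and 6.31 in LFD, 3.66, 3.08 and 2.37 in HFD and 3.87 and 2.82 in ob/ob mice, a difference of -3.15 ± 0.43 with a gap of 1.80, the widest of all members. Cyp2e1 (chr7:140763739-140774987), a cytochrome P450 that oxidizes ethanol and other small molecules, had values of 7.57, 6.87 and 6.69 in LFD, 5.14, 5.16 and 4.73 in HFD and 4.33 and 3.56 in ob/ob mice (-2.57 ± 0.30). Both genes separated the groups by more than 1.5 log2 units. Slc7a5 (chr8:121881150-121907694), a carrier of large neutral amino acids, was at 9.69, 9.73 and 9.94 in LFD, 8.31, 8.07 and 8.17 in HFD and 8.75 and 8.11 in ob/ob mice (-1.48 ± 0.18). The metallothionein Mt1, which binds zinc, was between 11.67 and 12.36 in LFD and between 9.20 and 10.63 in obese mice (-2.17 ± 0.38). Galr1, a receptor of the neuropeptide galanin, lay between 6.13 and 6.85 in LFD and between 3.21 and 4.75 in obese mice (-2.51 ± 0.40).

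Usp2 (chr9:44067021-44095627), a deubiquitinase whose transcript follows the circadian clock, was at 7.62, 7.44 and 8.11 in LFD, 6.22, 5.14 and 5.74 in HFD and 5.83 and 5.64 in ob/ob mice (-2.01 ± 0.29). Rph3al, which acts in granule exocytosis, was between 7.00 and 7.63 in LFD and between 5.06 and 6.09 in obese mice. Mamdc4, Dlec1 and Tmem143, and the less studied genes Gm15915, AI463170, 6430710C18Rik and BC048644, completed this group with differences from -1.26 (Dlec1) to -1.97 (Gm15915). Rnu3b1, a copy of the U3 small nucleolar RNA, showed the largest difference of the named genes, -4.67 ± 0.78. It was at 12.26, 12.39 and 12.99 in LFD mice, 6.94, 6.80 and 6.78 in HFD mice, and 11.03 and 6.78 in ob/ob mice. Its near-identical copies share reads, so the level of this copy is uncertain, and ob/ob replicate 1 lay close to the LFD mice.

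**Figure D2:**
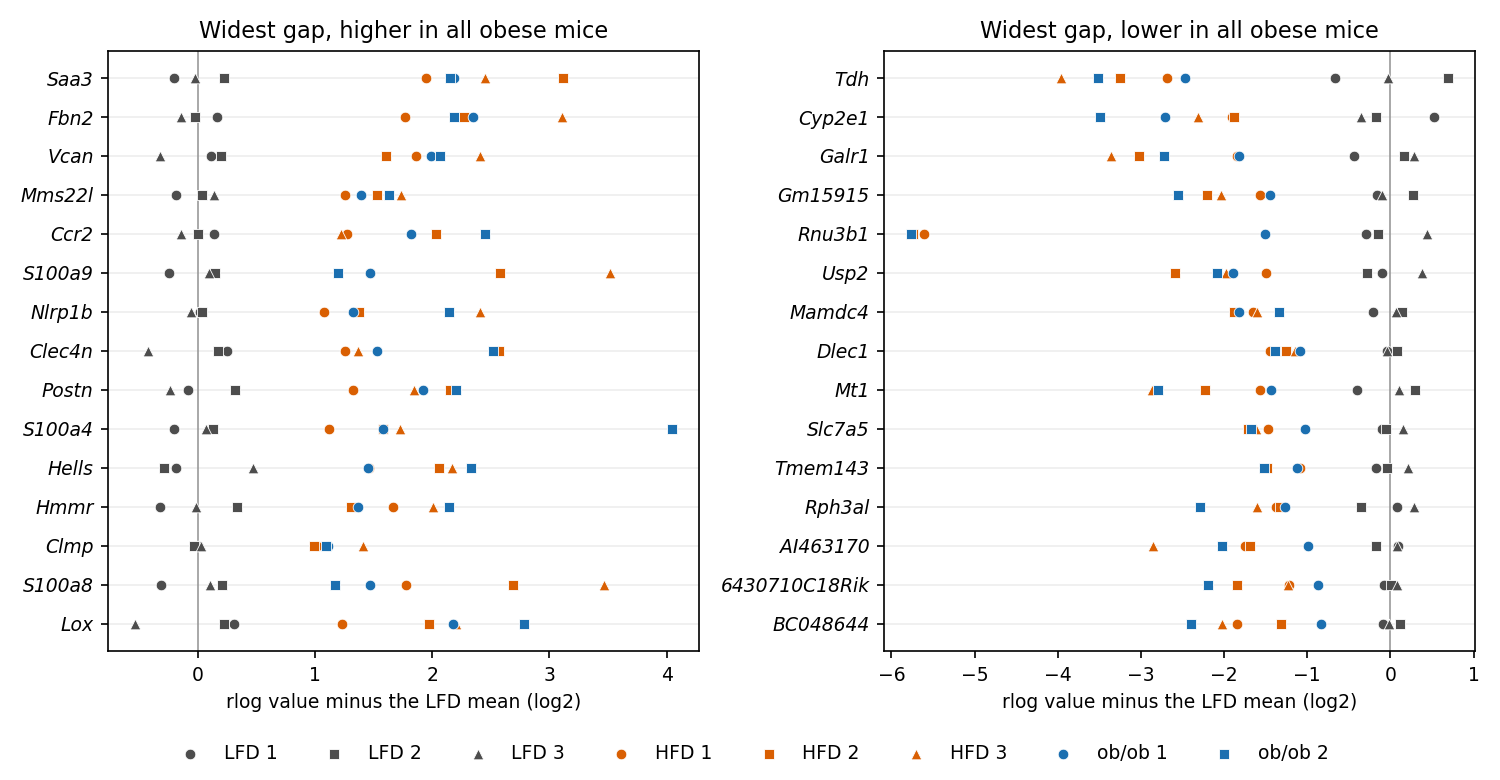
Each row is 1 of the 15 higher (left) or 15 lower members (right) with the widest gap, and each point is 1 mouse, placed by its rlog value minus the LFD mean (log2). Color marks the group and shape the replicate number. The obese mice do not overlap the LFD mice in any row, and HFD replicate 1 or ob/ob replicate 1 is the nearest to them in most.

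Evenness, the smallest difference of an obese mouse from the LFD mean divided by the largest, showed which members differed by a like amount in all 5 obese mice. It was at least 0.5 in 126 higher and 154 lower members and under 0.2 in 342 and 451. Among members that differed by at least 1, the most even higher genes were Mms22l (0.73), Clmp (0.70), the RNA gene Dnm3os (0.68), Vcan (0.67), Wfdc21 (0.66), Fgd2 (0.65), Zfp991 (0.64) and Rinl (0.63). The most even lower genes were Dlec1 (0.75), Tmem143 (0.72), Mamdc4 (0.71), Foxo6 (0.63), Timd4 (0.63), Tdh (0.62), Slc7a5 (0.60) and Mogs (0.60). Mogs, the glucosidase that starts the trimming of N-glycans in the ER, was at 10.09, 10.34 and 10.24 in LFD, 9.44, 9.03 and 8.91 in HFD and 9.29 and 8.93 in ob/ob mice. In these 16 genes the obese mouse nearest to the LFD mice still showed 0.60 to 0.75 of the largest difference.

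Gene lists placed the members in pathways and cell types. Of 1195 symbols on 38 lists, 1121 were measured, and 316 of the 2776 members lay on at least 1 list. Some genes stand on more than 1 list, so the counts of different lists are not independent. The shares below are read beside the 9.4% and 9.05% of all genes that met the rule in each direction. Clock repressors, amino acid metabolism and ER folding held the largest shares of lower members, and receptors of innate immunity, matrix proteins, mitosis and macrophage markers the largest shares of higher ones. Leaving out HFD replicate 1 made most lists longer, as it did for all genes (2771 higher and 2608 lower of 15047). Such counts, given beside several lists, are to be read beside these counts of all genes and not beside 9.4% and 9.05%.

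**Figure D3:**
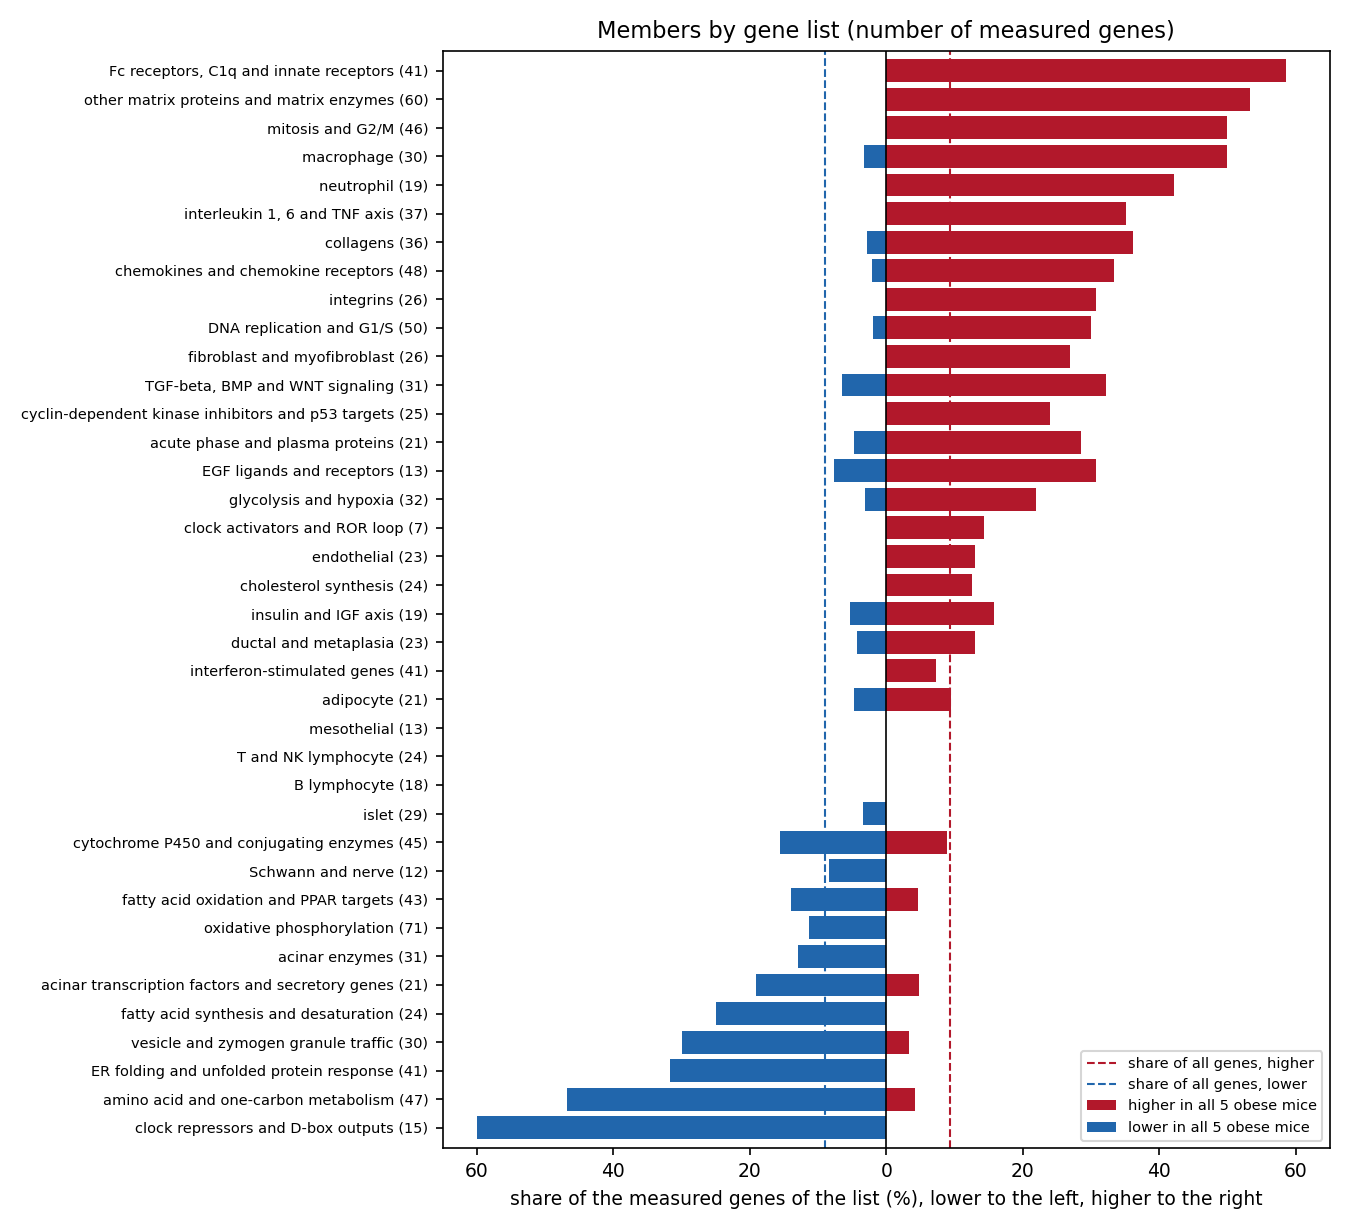
Bars give the share (%) of the measured genes of each list that were higher (red, right) or lower (blue, left) in all 5 obese mice, with the number of measured genes in parentheses. Dashed lines mark the shares in all genes, 9.4% higher and 9.05% lower. Lists at the top are mostly immune, matrix and mitotic, and lists at the bottom are clock, metabolic and secretory.

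Matrix genes were among the most one-sided. Of 60 matrix proteins and enzymes, 32 were higher and 0 lower in all obese mice, with a median difference of 1.27, and 58 of the 60 had a positive difference. Timp1, an inhibitor of matrix proteases, was at 6.58, 7.33 and 6.71 in LFD, 7.91, 9.51 and 9.17 in HFD and 9.15 and 9.79 in ob/ob mice (2.29 ± 0.37). Postn, a matricellular protein of activated fibroblasts, had 9.12, 9.52 and 8.96 in LFD, 10.52, 11.35 and 11.04 in HFD and 11.12 and 11.40 in ob/ob mice (1.92 ± 0.22). Among 36 collagens, 13 were higher and 1 lower, with a median of 1.08. Without HFD replicate 1, 20 collagens and 14 integrins were higher. Col1a1, a chain of fibrillar collagen I, was at 9.79, 9.28 and 8.89 in LFD, 10.63, 11.28 and 12.52 in HFD and 11.29 and 11.72 in ob/ob mice (2.17 ± 0.40), and Col5a1, Col6a3, Col1a2 and Col3a1 differed by 1.68 to 1.95. The protease Adamts4 (1.99 ± 0.46) and tenascin C, Tnc (1.96 ± 0.58), were also members. Of 26 integrins, adhesion receptors for matrix or for other cells, 8 were higher and 0 lower. They were Itga2, which binds collagen (1.70 ± 0.51), Itgb1, Itgb3 and Itgb5, and the leukocyte integrins Itgam, Itgax, Itgad and Itgae.

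Markers of fibroblasts and myofibroblasts were higher in 7 of 26 and lower in 0 (15 and 1 without HFD replicate 1), with a median of 0.90, and the mean rlog value over this list was 7.45 to 7.82 in LFD and 7.91 to 8.75 in obese mice. Lum, the small proteoglycan lumican, was at 8.63, 8.98 and 8.96 in LFD, 9.78, 10.39 and 9.84 in HFD and 9.78 and 10.12 in ob/ob mice (1.12 ± 0.19). Of the 7 members, Lum, Postn, Col1a1, Col1a2 and Col3a1 were also on the matrix or collagen lists, and Pdpn and Thy1 were not. In endothelial markers 3 of 23 were higher, namely Aplnr, Apln and Angpt2, with a list median of 0.18. Ductal and metaplasia markers gave 3 higher (Dclk1, Cd44 and Spp1) and 1 lower (Tff2) of 23, and in this list the median was 0.96 for HFD and -0.01 for ob/ob mice against LFD.

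Genes of innate immune cells held the largest share of higher members. Of 41 Fc receptors, complement C1q chains and innate receptors, 24 were higher, 0 were lower and all 41 had a positive difference, with a median of 1.38 (38 higher without HFD replicate 1). Fcgr2b, the inhibitory receptor for immunoglobulin G, was at 8.84, 8.50 and 8.29 in LFD, 9.44, 10.43 and 9.93 in HFD and 10.23 and 11.00 in ob/ob mice (1.74 ± 0.27). Clec4n, a lectin receptor for fungal sugars also known as dectin-2, was at 7.64, 7.56 and 6.97 in LFD, 8.64, 9.96 and 8.75 in HFD and 8.92 and 9.91 in ob/ob mice (1.88 ± 0.36). Clec4d, Fcrls, Lilrb4a and Cd300lb differed by 1.64 to 1.70.

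Macrophage markers were higher in 15 of 30 and lower in 1, with a median of 1.28, and their mean rlog value was 7.48 to 8.04 in LFD and 8.06 to 9.46 in obese mice. The lower member was Timd4 (-1.25 ± 0.35). A positive difference was seen in 27 of the 30, and Marco (-1.52 ± 0.54) and Chil3 (-0.175 ± 0.89) had negative ones with overlapping mice. Adgre1, which encodes a surface protein of macrophages, was at 8.74, 8.57 and 8.14 in LFD, 9.30, 10.12 and 9.82 in HFD and 10.15 and 10.60 in ob/ob mice (1.57 ± 0.23). Cx3cr1, the fractalkine receptor, ranged from 5.82 to 6.25 in LFD and from 6.78 to 9.70 in obese mice (2.04 ± 0.50). The scavenger receptor Msr1, Aif1 and the lectin receptor Clec4a2 differed by 1.56 to 1.66. C1qa, C1qb, C1qc, Trem2, Clec4a2 and Clec4n were also counted on the list of innate receptors. Cx3cr1 was also on the chemokine list and Spp1 on the ductal list. Neutrophil markers were higher in 8 of 19, with a median of 1.32 and a list mean of 5.06 to 5.58 in LFD and 5.91 to 7.01 in obese mice, and they included Mmp8, Mmp9 and Fpr2 beside the calprotectin genes. Of the neutrophil members, Mmp9, Trem1, Clec4d and Itgam were also on other lists. By comparison, 0 of 18 B cell markers and 0 of 24 T and NK cell markers were members, with medians of -0.37 and 0.29. LFD replicate 2 had the highest mean of both lymphocyte lists, 5.87 for B cells, while the other 7 mice were between 3.91 and 4.64. For T and NK cells it was at 4.5, LFD replicates 1 and 3 at 3.41 and 3.29, and the obese mice between 3.68 and 4.26. A positive difference was seen in 20 of the 24 T and NK cell markers and in 4 of the 18 B cell markers.

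Cytokines and chemokines added ligands to these receptors. Of 48 chemokines and chemokine receptors, 16 were higher and 1 lower (median 0.81). Ccl7, a ligand of Ccr2, was at 4.32, 4.08 and 4.19 in LFD, 4.84, 5.91 and 5.61 in HFD and 6.00 and 6.78 in ob/ob mice (1.73 ± 0.31), and Ccl12, another ligand, differed by 1.80 ± 0.39. Ccr1 and the chemokine Cxcl14 differed by 1.83 ± 0.30 and 1.63 ± 0.40. In the interleukin 1, interleukin 6 and TNF axis 13 of 37 genes were higher and 0 lower (median 0.97, 21 and 1 without HFD replicate 1). Il1b, the main secreted interleukin 1, was at 6.23, 7.50 and 6.89 in LFD, 7.84, 9.55 and 9.09 in HFD and 7.96 and 8.10 in ob/ob mice (1.55 ± 0.41), and Il1rn, its natural antagonist, differed by 1.74 ± 0.41. Acute phase and plasma proteins gave 6 higher and 1 lower of 21. A2m and haptoglobin, Hp, differed by 2.17 ± 0.29 and 1.72 ± 0.29, whereas Itih4 was lower, at 11.57, 11.18 and 11.03 in LFD, 10.10, 9.13 and 7.23 in HFD and 10.50 and 7.63 in ob/ob mice. Genes that interferon induces were higher in 3 of 41 (Gbp3, Ifit3 and Stat2), a share near that of all genes, and in 15 without HFD replicate 1.

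Mitosis gave a larger share of higher members than DNA replication. In mitosis and G2/M, 23 of 46 genes were higher and 0 lower, with a median of 1.67, and in DNA replication and G1/S, 15 of 50 were higher and 1 lower, with a median of 0.74. Without HFD replicate 1, 42 and 33 genes were higher. Cenpf, a kinetochore protein, was at 5.14, 6.07 and 5.71 in LFD, 6.66, 7.52 and 8.66 in HFD and 7.83 and 8.64 in ob/ob mice (2.28 ± 0.45). Foxm1, the transcription factor of the G2/M genes, was at 3.32, 3.62 and 3.45 in LFD, 4.29, 5.42 and 6.31 in HFD and 4.98 and 6.39 in ob/ob mice (2.05 ± 0.49). Ccna2, Prc1, Bub1 and Ckap2l differed by 2.03 to 2.11. In each of these 6 mitotic genes HFD replicate 1 was the obese mouse with the lowest value. Hells, which remodels chromatin at replication, was at 5.50, 5.39 and 6.15 in LFD, 7.14, 7.74 and 7.85 in HFD and 7.13 and 8.01 in ob/ob mice (1.89 ± 0.30), and Pole, the catalytic subunit of DNA polymerase epsilon, differed by 1.78 ± 0.44. Cell cycle inhibitors and p53 targets were higher in 6 of 25 and lower in 0, but the median of the list was only 0.1. In this list 16 genes had a positive and 9 a negative difference. Cdkn1a, the p21 inhibitor, was 1 of the 6, at 5.34, 5.33 and 5.32 in LFD, 6.53, 7.38 and 6.91 in HFD and 6.27 and 5.96 in ob/ob mice (1.20 ± 0.24).

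Growth factors were split. Of 13 EGF ligands and receptors, 4 ligands were higher (Nrg1, Areg, Ereg and Hbegf) and 1 was lower. Areg, amphiregulin, was at 3.42, 3.65 and 3.70 in LFD, 4.43, 6.69 and 7.03 in HFD and 4.74 and 4.96 in ob/ob mice (1.86 ± 0.55). Egf itself, the founding ligand, was at 10.71, 10.61 and 10.67 in LFD, 10.52, 8.66 and 7.34 in HFD and 10.04 and 7.67 in ob/ob mice (-1.82 ± 0.72). Genes of TGF-beta, BMP and WNT signaling, a list of ligands, receptors and inhibitors, were higher in 10 of 31 and lower in 2. The 10 were 5 ligands, among them Wnt2 (1.48 ± 0.25), 3 secreted WNT antagonists (Sfrp1, Sfrp2 and Sfrp4), the receptor Lgr5 and Bmp1 (1.50 ± 0.36), a protease that matures collagen. In the insulin and IGF axis 3 of 19 were higher, the RNA-binding gene Igf2bp2 and the IGF carriers Igfbp3 and Igfbp4, and Igfals was lower (6 higher and 3 lower without HFD replicate 1). Igfbp3 was at 9.76, 9.74 and 9.50 in LFD, 10.59, 11.39 and 11.45 in HFD and 10.79 and 11.20 in ob/ob mice (1.40 ± 0.23). Among genes of glycolysis and hypoxia 7 of 32 were higher and 1 lower (17 and 2 without HFD replicate 1), among them the lactate exporter Slc16a3 (2.17 ± 0.75) and the glucose transporter Slc2a3 (1.44 ± 0.29).

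Acinar enzymes had large mean differences but few members. All 31 had a negative difference, with a median of -2.02, yet only Pla2g1b, Gp2, Pnlip and Cpa1 (4 of 31, read beside 9.05% of all genes) were below the LFD mice in all 5 obese mice. Pnlip, pancreatic lipase, was at 20.85, 20.94 and 20.91 in LFD, 20.65, 18.82 and 16.86 in HFD and 20.24 and 17.24 in ob/ob mice (-2.14 ± 2.10). HFD replicate 1 was thus 0.20 below the lowest LFD mouse while HFD replicate 3 was at 16.86. The mean rlog value over the list was 16.86 to 17.43 in LFD mice and 17.24 in HFD replicate 1, with 13.24 to 16.50 in the other obese mice. With quantile normalization the median of the list was -0.66. Among 21 acinar transcription factors and secretory genes, 4 were lower, namely the cholecystokinin receptor Cckar, the creatine enzyme Gatm, the transcription factor Nr5a2 and the granule GTPase Rab3d, and 1, the lysosomal protease Ctsc, was higher. Without HFD replicate 1, 27 of the 31 enzymes and 14 of these 21 genes were lower in all obese mice.

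With all 5 obese mice, the secretory pathway held more members than the enzymes it carries. Without HFD replicate 1 the enzymes had the larger share, 27 of 31 beside 32 of 41 genes of ER folding. Of 41 genes of ER folding and the unfolded protein response, 13 were lower and 0 higher, with a median of -0.83 (32 lower without HFD replicate 1). Hyou1, an ER chaperone, was at 12.41, 12.55 and 12.44 in LFD, 11.96, 11.14 and 10.83 in HFD and 11.74 and 10.75 in ob/ob mice (-1.19 ± 0.31). Herpud1, a part of ER-associated degradation, was at 12.70, 12.92 and 12.78 in LFD, 12.29, 10.92 and 10.84 in HFD and 12.13 and 10.51 in ob/ob mice (-1.46 ± 0.43). Derl3, Ero1lb, Syvn1 and the disulfide isomerase P4hb differed by -1.04 to -2.06. Of 30 genes of vesicle and zymogen granule traffic, 9 were lower and 1, the syntaxin Stx2, higher. Rab3a, a GTPase of regulated exocytosis, was at 6.67, 6.85 and 7.11 in LFD, 5.70, 5.28 and 5.24 in HFD and 6.20 and 5.68 in ob/ob mice (-1.20 ± 0.24), and Rab26 and Sytl1 differed by -1.86 ± 0.67 and -1.83 ± 0.60.

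With all 5 obese mice, amino acid and one-carbon metabolism followed clock repressors as the list with the largest share of lower members. Of 47 genes, 22 were lower and 2 higher, with a median of -0.79 (28 lower and 5 higher without HFD replicate 1). Mat1a, which makes S-adenosylmethionine, was at 10.34, 10.84 and 10.95 in LFD, 9.80, 7.97 and 6.56 in HFD and 9.52 and 6.98 in ob/ob mice (-2.53 ± 0.75). Cbs, which makes cystathionine from homocysteine, was at 11.54, 11.66 and 11.61 in LFD, 11.33, 9.48 and 7.78 in HFD and 10.98 and 8.37 in ob/ob mice, and Gamt and Gls2 differed by -1.93 ± 0.69 and -1.86 ± 0.79. Mat1a, Cbs, Gamt and Gls2, and also Tdh and Slc7a5, had their highest obese value in HFD replicate 1 or ob/ob replicate 1, the obese mice with the highest acinar shares.

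Lipid metabolism was mixed. Of 24 genes of fatty acid synthesis and desaturation, 6 were lower and 0 higher, but the median of the list was -0.02, and 0.03 with quantile normalization. Acacb, the acetyl-CoA carboxylase of mitochondria, was at 9.02, 8.92 and 8.81 in LFD, 8.44, 7.29 and 6.43 in HFD and 8.33 and 6.54 in ob/ob mice (-1.51 ± 0.50), and Thrsp, Gpam, Fads2, Acss2 and Fads1 were the others. Of 24 genes of cholesterol synthesis, 3 were higher (Stard4, Cyp51 and Idi1) and 0 lower, a share near the 9.4% of all genes, with 10 higher when HFD replicate 1 was left out. Fatty acid oxidation and PPAR targets gave 2 higher (Acsbg1 and Fabp3) and 6 lower of 43 (6 and 13 without HFD replicate 1), and cytochrome P450 and conjugating enzymes 4 higher and 7 lower of 45 (5 and 13 without it), with Gstm1, Gstm2 and Gstt3 lower by 1.12 to 1.26 on the log2 scale. In oxidative phosphorylation 67 of 71 genes had a negative difference with a median of -0.30, and 8 were members (33 without HFD replicate 1), among them the complex I subunit Ndufv1 (10.05 to 10.28 in LFD, 9.53 to 9.76 in obese mice). Of 21 adipocyte markers, Lep and the fatty acid carrier Cd36 were higher and Cfd, the protease adipsin, was lower. Cfd was at 8.41, 7.67 and 7.50 in LFD, 5.97, 6.78 and 5.79 in HFD and 6.31 and 5.15 in ob/ob mice (-1.91 ± 0.37), and the mean over the adipocyte list was 6.49 to 7.00 in LFD and 5.98 to 7.08 in obese mice. Islet markers held 1 member of 29 (lower), Schwann cell markers 1 of 12, Cnp (lower), and mesothelial markers 0 of 13.

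Of the 38 lists, clock repressors and output genes had the largest share of lower members. Of 15 clock repressors and output genes, 9 were lower and 0 higher in all obese mice, with a median of -0.78. Nr1d2 (chr14:18204054-18239127), the nuclear receptor REV-ERB beta, was at 10.21, 10.40 and 10.40 in LFD, 8.98, 8.67 and 8.85 in HFD and 9.70 and 9.59 in ob/ob mice (-1.10 ± 0.14). Per3 was at 8.60, 8.39 and 8.52 in LFD, 7.58, 7.20 and 6.99 in HFD and 7.81 and 7.60 in ob/ob mice (-1.02 ± 0.18). Dbp, a transcription factor that binds D-boxes, was at 7.82, 8.58 and 8.32 in LFD, 6.50, 5.84 and 5.77 in HFD and 7.64 and 7.05 in ob/ob mice (-1.55 ± 0.27). In all 3 genes the HFD mice were lower than the ob/ob mice, an order whose share over all genes was not counted. For Per2 the ob/ob mean was the lower one, but the models overlapped, with 9.12, 8.58 and 8.86 in LFD, 8.04, 7.50 and 7.28 in HFD and 7.31 and 6.78 in ob/ob mice (-1.53 ± 0.24). Tef, Cry2, Wee1 and Ciart were the other members beside Usp2, with differences from -0.62 to -0.90.

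Of the repressors and outputs that did not meet the rule, Per1, Cry1 and Hlf had differences of -0.71, -0.78 and -0.84, and Nr1d1, Bhlhe41 and Bhlhe40 of 0.29, 0.47 and 1.16. Arntl (chr7:113207465-113314126), the activator known as BMAL1, was the only member of the activator loop and lay on the opposite side, at 6.47, 5.78 and 5.77 in LFD, 8.07, 7.44 and 7.58 in HFD and 7.12 and 7.21 in ob/ob mice (1.42 ± 0.24). Npas2 and Rora differed by 1.07 ± 0.45 and -1.05 ± 0.40 with overlapping mice. The hour at which tissue was taken is not given in the sources used here, and its part in the clock genes was not tested.

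**Figure D4:**
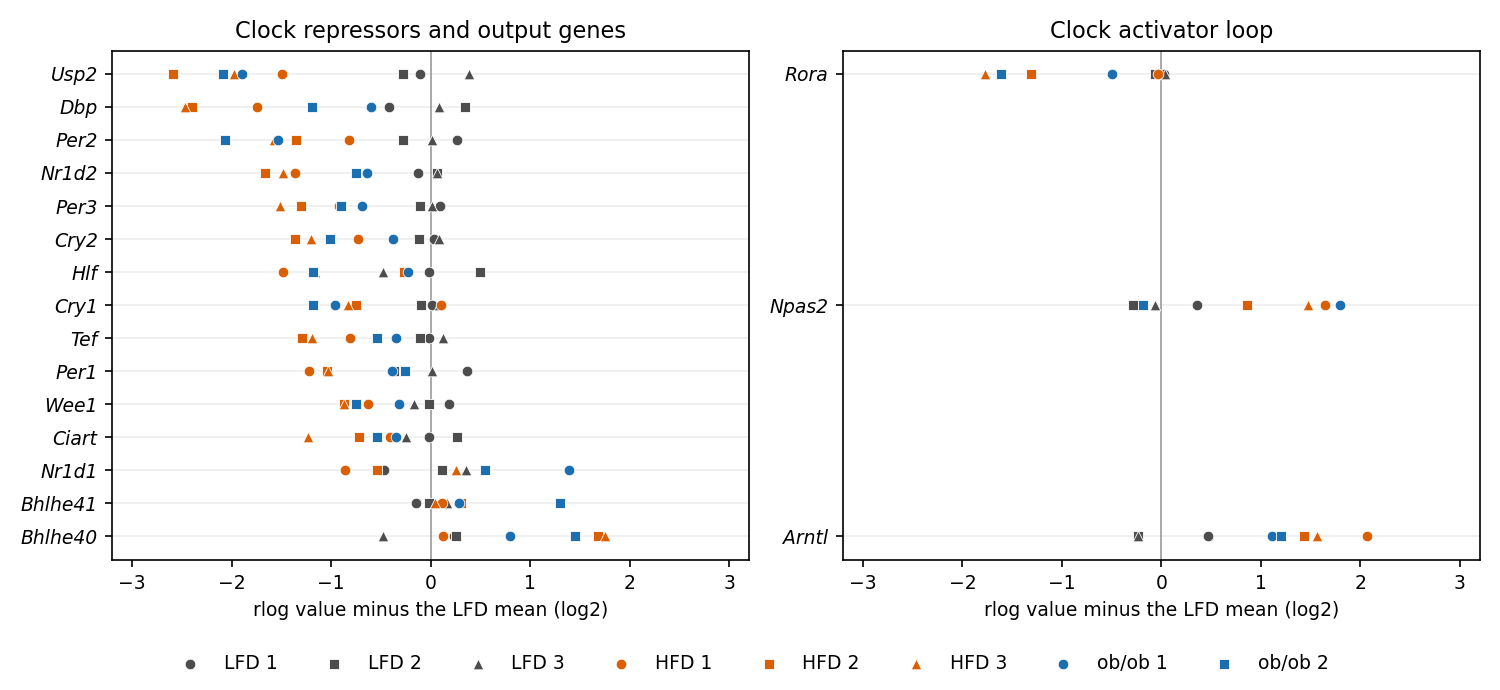
Each row is a clock gene named in the text, ordered by its mean difference, and each point is 1 mouse, placed by its rlog value minus the LFD mean (log2), with color for the group and shape for the replicate number. Most repressors and output genes lie left of the LFD mice in all obese mice, and Arntl lies right of them.

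Promoters were looked up for the 4 lower clock members with the widest gaps, Usp2, Per3, Per2 and Nr1d2, and 3 of them are shown. The 300 bases run from 250 before to 50 after the start of the gene, 5′ to 3′ on its strand (RefSeq, GRCm38.p6), and capitals mark the words searched, which were the D-box (TTATGTAA or TTACGTAA), the E-box bound by CLOCK and ARNTL (CACGTG) and a word bound by the myeloid factor PU.1 (GAGGAAGT), on both strands, none of which contains another.
Usp2, chr9:44084670-44084969, plus strand: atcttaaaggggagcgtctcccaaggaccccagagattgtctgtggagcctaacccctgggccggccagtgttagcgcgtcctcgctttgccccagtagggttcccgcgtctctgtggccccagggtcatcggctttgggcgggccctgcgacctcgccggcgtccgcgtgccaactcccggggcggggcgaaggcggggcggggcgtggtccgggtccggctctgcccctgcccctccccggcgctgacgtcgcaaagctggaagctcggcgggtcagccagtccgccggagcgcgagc
Per3, chr4:151044616-151044915, minus strand: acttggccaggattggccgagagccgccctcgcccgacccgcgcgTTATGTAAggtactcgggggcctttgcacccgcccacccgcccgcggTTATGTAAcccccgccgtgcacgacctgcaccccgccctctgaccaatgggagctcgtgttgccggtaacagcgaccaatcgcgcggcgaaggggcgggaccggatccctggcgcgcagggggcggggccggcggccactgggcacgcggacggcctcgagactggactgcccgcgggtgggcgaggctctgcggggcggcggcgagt
Nr1d2, chr14:18239057-18239356, minus strand: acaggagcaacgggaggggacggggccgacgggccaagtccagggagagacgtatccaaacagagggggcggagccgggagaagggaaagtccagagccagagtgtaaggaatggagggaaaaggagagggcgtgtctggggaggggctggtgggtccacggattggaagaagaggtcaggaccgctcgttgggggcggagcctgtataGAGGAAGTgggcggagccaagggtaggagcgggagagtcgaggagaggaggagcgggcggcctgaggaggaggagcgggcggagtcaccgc
Per3 held 2 D-boxes in this window, Nr1d2 held 1 PU.1 word, Usp2 held none of the words and none of the 3 held the E-box word. The window of Usp2 follows a RefSeq start inside the span given above for the gene. It therefore does not cover the 5′ end of that span. A D-box was in 0.924% of the promoters of 11685 measured genes, in 1 of 12 clock repressors and output genes and in 1 of the 7 members among these. An E-box was in 11.1% of the measured genes, in 5 of the 12 and in 2 of the 7.

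Across the members, the PU.1 word was in the promoters of 74 of 1059 higher members (6.99%) and of 20 of 1078 lower members (1.86%), with 3.83% in the measured genes. The E-box word stood in 84 higher (7.93%) and 160 lower members (14.8%). D-boxes were in 0.944% of the higher and 1.11% of the lower members. These shares are descriptions of letters in a window, without a test.

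The models were also set against each other. The rule placed the mice of both models on the same side of the LFD mice, which bears on how far they can differ in the members, so the members' values here are descriptions. The median of the absolute difference between ob/ob and HFD mice was 0.22 (log2) in higher and 0.12 in lower members, with 0.19 in all genes. With limma, adjusted p-values under 0.05 were found for 0 genes (0%) in this comparison, and the smallest was 0.883. Unadjusted p-values under 0.05 were seen in 588 genes (3.91%), among them 46 higher members (3.25%) and 14 lower members (1.03%). With 2 and 3 mice in the groups, a p-value over the threshold does not show that the models act alike. The median over the higher members was 0.91 for HFD and 0.95 for ob/ob against LFD, and that over the lower members was -0.64 for both.

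**Figure D5:**
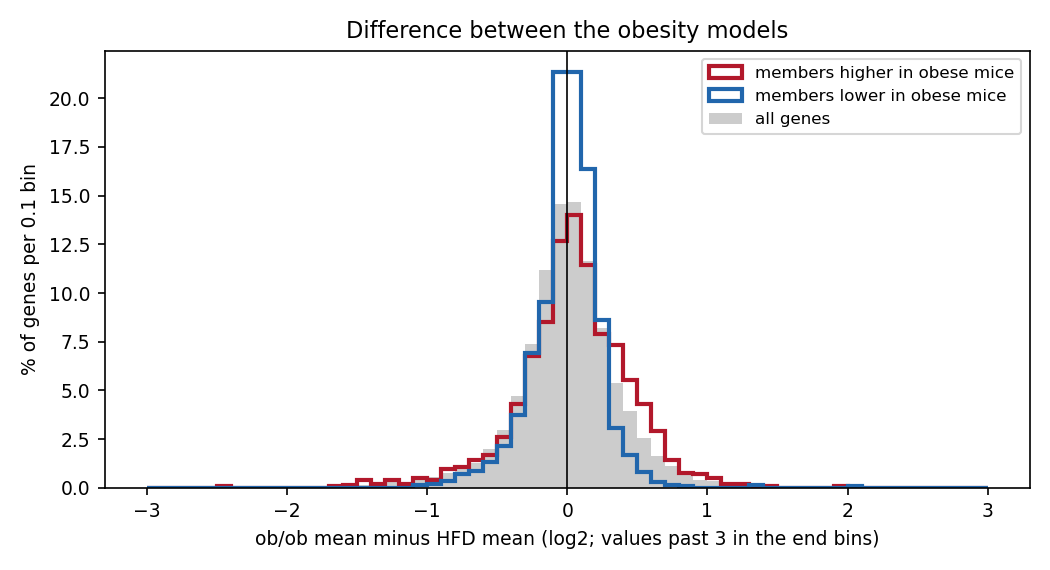
Histograms give the share (%) of genes by the difference between the ob/ob and the HFD mean (log2, bins of 0.1), with higher members in red, lower members in blue and all genes in gray. All are centered near 0, with medians of the absolute difference of 0.22, 0.12 and 0.19.

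Among higher members, the genes with more in ob/ob than in HFD mice were Col11a1, Nrcam, S100a4, Pira1 and Fcrls. Col11a1, a minor fibrillar collagen, was at 5.38, 5.50 and 5.66 in HFD and 6.95 and 7.88 in ob/ob mice, beside 5.09, 4.61 and 4.05 in LFD mice. The difference between the models was 1.90 ± 0.39 (unadjusted p = 0.00106, adjusted p = 0.883, limma). Those with more in HFD mice were the basophil protease Mcpt8, the lectin Clec2e, the steroid reductase Srd5a1, Gipc2 and the glycine cleavage enzyme Gldc, by 1.47 to 2.41. Mcpt8 was at 3.86, 6.86 and 7.45 in HFD and 3.73 and 3.56 in ob/ob mice, so HFD replicates 2 and 3 set this difference. Clec2e rested on HFD replicate 3 alone, at 7.79 with 2.66 and 3.18 in the other HFD mice.

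In lower members, Nr1d2 was lower in HFD than in ob/ob mice by 0.81 ± 0.17 (unadjusted p = 0.00119, adjusted p = 0.883), and Rnu3b1, Extl1, Dbp and Mapk8ip1 also had less in HFD mice. Cyp2e1, Zfpm1, Atp2c2, Ovol1 and Ngef had less in ob/ob mice, with differences of -0.92 to -1.07. Col11a1, Nr1d2, Dbp and Cyp2e1 were named for their large difference between the models. That the 3 HFD and 2 ob/ob mice did not overlap in them is therefore no separate result. The share of all genes without such overlap was not counted.

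At the edge of the rule, the higher members with the smallest gaps were Gm26730, Phip and Cdc42ep2, and Tbc1d5, Gm10778 and Odf2l were just outside. The lower members with the smallest gaps were Klk1b8, Yif1a and Zfp664, and Gm20324, Gfm2 and Mrps26 were just outside. Phip was at 9.38, 9.48 and 9.37 in LFD mice and 9.48 in HFD replicate 1, the nearest obese mouse. Tbc1d5 was at 7.70 in both LFD replicate 1 and HFD replicate 2. Genes on either side of the edge thus differed by less than 0.01 in their gap.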

How the data were processed

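RNA was extracted from the pancreas of 8 male mice, 3 LFD, 3 HFD and 2 ob/ob, and sequenced in paired-end libraries. The authors quantified transcripts with Salmon (version 0.11.3 in the submitters' processing notes, which also name GRCm38.p6), summarized them per gene and transformed the counts with rlog of DESeq2 1.22.2, and deposited these log2 values, scaled to library size, of 15047 gene symbols. The filter that left these genes, and whether rlog used the groups, are not given in the sources used here. Salmon shares reads between similar transcripts, so close paralogs are less certain. Counts and depth were not used, so no counting error is given. Groups and replicate numbers came from the sample labels, and nothing there says that mice of a number belong together.

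The members, the gene lists and the rule for naming genes were chosen with earlier results of these data known, so the counts over lists are descriptions and carry no test. Obese mice (the mean of HFD and ob/ob) and LFD mice, and ob/ob and HFD mice, were compared with limma 3.58.1 in R 4.3.3 (a mean for each group, trended variance, Benjamini-Hochberg adjustment over all 15047 genes at 0.05). In data simulated with the same spread for every gene and mouse, it recovered 9 of 50 genes that differed by 2 residual SD. At 4 SD it recovered 48 of 50, and 9 unchanged genes were called. The simulation does not copy the wider spread of the obese mice in acinar share, so it is no check of the count of 0 genes. The acinar share was compared by an exact permutation test in SciPy 1.17.1. Values of 31 genes were raised to the power of 2 and summed for it. Named genes are the 15 members with the widest gap in each direction, the 8 most even, the 5 at each end of ob/ob minus HFD, up to 6 members per list, all genes of lists of at most 15 genes (not all of them were named, and some are not reported here), and the 3 genes on each side of the edge of the rule. Itgb1, Itgb5, Sfrp4 and Lgr5 were named after their values were seen. Coordinates were taken from Gencode M21 (GRCm38), in which 14905 symbols had 1 match. RefSeq promoters of GRCm38.p6 matched 11685 symbols. The alternatives were the variance without a trend, 2 groups, a mean rlog value of at least 5, median centering, quantile normalization, array weights, the replicate block, the mean of the acinar enzymes as a covariate, a gap of at least 0.25, and leaving out each mouse.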

Additional observations from a re-analysis of the deposited data

Results flagged for a closer look

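In 5 of 55 genes named for their gap, evenness or difference between the models, 1 of the 5 obese mice lay far from the other 4. Its gap to its neighbor was over 0.71 of their whole range (Dixon's test at 95%). The 55 genes were picked on these same values, so the usual rate of about 1 group in 20 does not apply to them. The share of the range was 0.964 for Rnu3b1 in ob/ob replicate 1, which was at 11.03 with 6.78 to 6.94 in the others. It was 0.89 for Clec2e in HFD replicate 3, at 7.79 with 2.61 to 3.18 in the others, and 0.791 for S100a4 in ob/ob replicate 2, at 10.94 with 8.01 to 8.62. In Clmp and Dnm3os, which are among the most even members, the shares were 0.726 (HFD replicate 3, at 6.87) and 0.745 (HFD replicate 1, at 6.38), within a narrow range of obese mice.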

How the results depend on the processing

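Between obese and LFD mice, the count of genes with adjusted p under 0.05 in limma was 0, and it was 0 with no trend, a mean rlog value of at least 5, median centering, quantile normalization and the replicate block. With 2 groups the count was 10, with the acinar enzymes as a covariate 1 and with array weights, which gave HFD replicate 2 a weight of 9.36 and HFD replicate 1 of 0.273, 4286. Leaving out a mouse gave 0 to 3326. Of these 3326 genes, found without HFD replicate 1, 1919 were higher and 1407 lower, and 988 and 780 of them were members. Before adjustment, the 2186 higher and 1639 lower genes became 3497 and 2825 with array weights, 1007 and 664 with the covariate, and 1270 to 3188 and 767 to 2636 when a mouse was left out. The genes above and below the LFD mice, 1414 and 1362, were 515 and 322 with a gap of at least 0.25, 1464 to 2771 and 1425 to 2608 without 1 mouse, the most without HFD replicate 1, and 2288 were above without LFD replicate 2. Between ob/ob and HFD mice, 0 to 1 members had an adjusted p-value under 0.05 without 1 mouse, and 41 to 219 instead of 60 had an unadjusted one. Why these counts differ was not tested. With the acinar covariate, the log2 differences of Clec2e and Klk1b8 took the other sign, at -0.276 and 0.033. Median centering moved the median of all genes from 0.04 to -0.05. Replicate numbers were not taken to pair the mice: the correlation of deviations between mice of a number was -0.0595, 0.113 and -0.281 for LFD and HFD, -0.0967 and 0.128 for LFD and ob/ob, and 0.592 and 0.303 for HFD and ob/ob, and LFD replicate 3 correlated better with HFD replicate 1 (0.328) than with its own number. With the replicate block, 2359 genes were higher and 1798 lower before adjustment and 0 after it.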

Other observations

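Other gene families were looked at after the values were seen, so their counts are descriptions. Of 61 histone genes, which supply chromatin during replication, 32 were higher and 0 lower in all obese mice (52.5%, with 9.4% in all genes), with a median difference of 1.05. Many stand in clusters on chromosome 13, where 7 measured neighbors from Hist1h2bb to Hist1h1a (chr13:23746734-23764406) were all higher. Hist1h3d was at 4.04, 4.71 and 4.62 in LFD, 5.63, 6.43 and 6.81 in HFD and 5.57 and 6.32 in ob/ob mice. Histone genes resemble each other, so the split of reads among them is uncertain. Chromosome 13 held 17.0% higher members, and 13.1% when histone genes were left out.

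Aminoacyl-tRNA synthetases of the cytosol, which charge tRNA with amino acids, were lower in 14 of 20 and higher in 0 (70.0%, with 9.05% in all genes), with a median of -0.46. Wars was at 11.46, 11.54 and 11.66 in LFD, 10.71, 10.05 and 9.84 in HFD and 11.03 and 9.64 in ob/ob mice, and Mars at 10.56, 10.69 and 10.69 in LFD, 10.24, 9.43 and 9.09 in HFD and 9.95 and 9.39 in ob/ob mice. Genes named Sec, many of them parts of ER translocation and transport vesicles, were lower in 10 of 26, and initiation factors named Eif in 15 of 54. Cytosolic ribosomal proteins held 1 lower member of 51 (Rpl) and 2 of 44 (Rps).

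S100 genes were higher in 7 of 12 and lower in 0. S100a4, S100a6, S100a8 and S100a9 are neighbors at chr3:90603771-90695721, and C1qa, C1qb and C1qc at chr4:136880129-136898803, and all of these were higher in every obese mouse. The neighbors Gstm2, Gstm1, Gstm4 and Ampd2 on chromosome 3 were lower.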
